A study of Mus musculus with 16 samples.

Results

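The 8 genes described here are Agt, Ace, Enpep, Mme, Agtr1a, Agtr1b, Agtr2 and Agtrap, which encode the precursor, the peptidases, the receptors and a receptor partner of the angiotensin pathway. They were chosen by gene symbol from the 31055 features measured. The rule used no measured value, but the choice was made with earlier results of these data known. Their transcripts were counted by single-cell RNA sequencing of mouse thoracic aorta, with 16 libraries of 1 mouse each and a unique molecular identifier (UMI) on each captured RNA molecule. The groups compared were 5 Smad3+/+ and 7 Smad3SmKO libraries taken 18 weeks after deletion of Smad3, and 2 Smad3+/+ and 2 Smad3SmKO libraries taken 10 weeks after it. All mice were males of the 129S6/SvEv strain, all carried the tamoxifen-inducible Myh11-CreER on the Y chromosome, and all received 2 mg of tamoxifen daily for 5 days from 6 weeks of age. Smad3SmKO mice carried floxed Smad3 alleles (Smad3 lox/lox), so that the deletion was limited to cells with active Myh11-CreER, whereas Smad3+/+ mice carried wild-type alleles. Some mice of both genotypes were labelled as also carrying a GFP-L10a tracer of smooth muscle.

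Angiotensinogen is cut by renin to angiotensin I, which angiotensin-converting enzyme trims to angiotensin II, the peptide that constricts arteries and drives growth and matrix responses of the vessel wall. Further peptidases shorten or destroy these peptides. Angiotensin II acts through type 1 receptors, of which mice have 2 genes, while the type 2 receptor often opposes them. In the thoracic aorta the pathway is known for its part in aneurysm, since infusion of angiotensin II enlarges the aorta of mice and receptor blockers are used in heritable aortic disease.

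Cells were sorted by a few genes, none of them a member. A vascular smooth muscle cell (VSMC) had at least 5 UMIs of Myh11 and more of Myh11 than of Dcn, and a fibroblast had at least 5 of Dcn and more of Dcn than of Myh11. Endothelium was taken as cells with at least 2 UMIs of Pecam1 and Cdh5 together, and leukocytes as cells with at least 2 of Ptprc and Tyrobp together. These gates held 8950 VSMCs, 36066 fibroblasts, 3303 endothelial cells and 3357 leukocytes of 50858 cells kept, and 1642 cells fell in none. Levels are given as CPM, the UMIs of a gene for every 1000000 UMIs of the gate, and they are compared only between gates or samples of 1 gene, never between genes.

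The libraries held between 12539539 and 52843031 UMIs and between 631 and 6497 kept cells, with medians of 4528 to 21884 UMIs per cell. VSMCs numbered 22 to 1706 per library, fibroblasts 196 to 5505, endothelial cells 31 to 469 and leukocytes 13 to 948. The VSMC gate was led by its own marker list at 65782 CPM against 2337 CPM for the fibroblast list, 21.7 CPM for the endothelial list, 560 CPM for the pericyte list, 169 CPM for the adipocyte list, 162 CPM for the heart muscle list and 13.0 CPM for the Schwann cell list, of which the adipocyte marker Lep and the Schwann cell marker Sox10 were at 0. The endothelial gate was mixed, because 62.9% of its cells also fell in another gate and 54.9% (1813 cells) also met the fibroblast rule, and its fibroblast list reached 20622 CPM. In cells of the endothelial gate and no other, the endothelial list reached 4333 CPM and the fibroblast list 1071 CPM, so results against the endothelium that bear on a member's order are also given for these cells. The pericyte list stood at 592 CPM in those cells, and the adipocyte list at 16217 CPM, of which Fabp4, a fatty acid binding protein gene also known in the endothelium of small vessels, made up 16195 CPM. Smad3 RNA was not lower in VSMCs of the libraries labelled Smad3SmKO (9.32 ± 4.37 CPM, SD, n = 7) than in those of Smad3+/+ (7.44 ± 2.79 CPM, n = 5) at 18 weeks, or at 10 weeks (6.63 ± 2.05 against 5.04 ± 0.501 CPM, n = 2 each). Gene-level counts need not show a deletion of some exons, and this was not tested. The study itself reported lower Smad3 RNA, by qPCR relative to Myh11, and lower Smad3 protein, by immunoblot, in Smad3SmKO aortas. GFP transcripts went against the tracer label in 4 libraries. VSMCs of the 2 Smad3SmKO libraries of 10 weeks, labelled without tracer, held GFP at 18.7 and 21.4 CPM. The 2 Smad3+/+ libraries of 18 weeks digested for 60 min, labelled with tracer, held 0. By label, only the Smad3+/+ libraries carried the tracer at 10 weeks. At 18 weeks all libraries digested for 60 min and none of those for 30 min carried it. The tracer label thus cannot be told apart from genotype at 10 weeks or from digestion at 18 weeks. By GFP UMIs in VSMCs, in contrast, all libraries of 10 weeks held the tracer. At 18 weeks only the Smad3SmKO libraries digested for 60 min did (14.9 to 18.3 CPM), so there GFP went with genotype among the libraries of 60 min. All libraries of 10 weeks came from batch 4, and digestion for 30 or 60 min went with the batch, so time, batch and digestion cannot be told apart there. Pairs of libraries shared between 0 and 11 cell barcodes.

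All members are protein-coding genes, with positions given here on mm10. Agt lies on chromosome 8 (124556534 to 124569706, minus strand), Ace on chromosome 11 (105967945 to 105989964, plus strand) and Enpep on chromosome 3 (129269175 to 129332720, minus strand). Mme also lies on chromosome 3 (63241537 to 63386030, plus strand), and Agtrap on chromosome 4 (148077061 to 148088031, minus strand). The receptor genes lie on chromosome 13 (Agtr1a, 30336441 to 30382867, plus strand), chromosome 3 (Agtr1b, 20314473 to 20367177, minus strand) and chromosome X (Agtr2, 21484544 to 21489164, plus strand). Agtr1a and Agtr1b are paralogs, and whether reads were shared between them was not tested. Ace and Enpep overlap annotated non-member genes on the other strand and Agtr1a one on the same strand.

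The members differed in their order over the gates. Of the 8, 6 had enough counts for the test between gates, in which each library was its own control (edgeR's quasi-likelihood test with Benjamini-Hochberg adjustment over all genes). Between VSMCs and fibroblasts 5 of the 6 differed, 1 higher and 4 lower in VSMCs, where 68.9% of all 13637 genes tested differed. The median log2 difference of the 6 was -1.25, against -0.09 over all genes. The shares called were so high for most pairs of gates that a call by itself says little about a member, and the levels below carry the description.

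Agt, the angiotensinogen gene, was scarce and lay in fibroblasts. Of its 730 UMIs in all kept cells, 90.4% came from cells that were fibroblasts by a single gate, which made up 66.8% of the kept cells. Across libraries the fibroblast level ran from 0 through a median of 1.80 to 5.60 CPM, and 15 of 16 libraries held Agt UMIs in fibroblasts. VSMCs held 18 Agt UMIs in all, with a median of 0 and a highest library of 3.56 CPM. The fibroblast level was therefore above that of VSMCs in 14 of 16 libraries, and the fitted difference was 7.04-fold (log2 difference VSMCs minus fibroblasts of -2.82, SE 0.42, adjusted p = 5.64e-08). Only 1.47% of fibroblasts by a single gate had an Agt UMI, or 0.37% once each cell was thinned to 2000 UMIs. Leukocytes held 5 Agt UMIs in all.

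Ace, which encodes angiotensin-converting enzyme, was measured in every library of every gate. Fibroblasts had the highest level, with a lowest library of 148, a median of 238 and a highest of 465 CPM. VSMCs ran from 31.1 through 78.7 to 190 CPM. In each of the 16 libraries VSMCs lay below fibroblasts, by 2.81-fold in the fit (log2 difference -1.49, SE 0.15, adjusted p = 2.02e-12). Ace UMIs were found in 68.4% of fibroblasts (95% exact interval 67.9 to 68.9), in 43.9% of VSMCs (42.8 to 44.9) and in 2.27% of leukocytes (1.77 to 2.88), all by a single gate and at median depths of 8216, 7852 and 5496 UMIs. Both other shares were above the leukocyte share, also after thinning to 2000 UMIs (33.3%, 16.4% and 1.02%). What free RNA in the droplets added to each share was not tested. Intervals and floors here and below cover counting error only, not the spread between mice. By library the shares before thinning ran from 54.2 to 84.9% in fibroblasts, 19.6 to 77.5% in VSMCs and 0.685 to 10.0% in leukocytes.

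The position of the endothelium in this order depended on how the gate was cut. Ace is a classical enzyme of endothelial surfaces. Cells that met the endothelial rule held 189 CPM when pooled, and 106 CPM once those of any other gate were left out, close to the pooled 101 CPM of VSMCs. VSMCs lay below the endothelium in 16 of 16 libraries with overlapping cells included (log2 difference -1.15, SE 0.16, adjusted p = 7.16e-09), and in 11 of 15 without them (-0.21, SE 0.18, adjusted p = 0.329). Fibroblasts, in turn, were not called different from the whole endothelial gate (log2 difference 0.34, SE 0.15, adjusted p = 0.0622), but lay above the endothelium in 15 of 15 libraries once overlapping cells were left out (1.32, SE 0.18, adjusted p = 6.02e-09). In cells of a single gate, then, fibroblasts were highest, VSMCs and endothelium did not differ beyond their spread, and leukocytes held 4.62 CPM.

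Enpep encodes aminopeptidase A, which removes the first residue of angiotensin II to give angiotensin III. It was the only member called higher in VSMCs than in fibroblasts. VSMCs ran from 8.91 through 17.8 to 103 CPM, fibroblasts from 5.68 through 15.1 to 34.1 CPM, and the endothelium from 1.67 through 6.37 to 20.7 CPM. The VSMC range was therefore much wider than the fibroblast range, and the 2 overlapped. The test put VSMCs 1.57-fold above fibroblasts (log2 difference 0.65, SE 0.24, adjusted p = 0.0128), a direction seen in 10 of 16 libraries, in 7 of the 7 digested for 30 min and in 3 of the 9 digested for 60 min. Without the 4 libraries whose GFP went against the label the log2 difference was 1.07 (adjusted p = 0.0016). Against endothelium the difference was larger (log2 2.19, SE 0.31, adjusted p = 1.84e-08) and it was found in each of the 16 libraries. It was 2.71 (SE 0.41, adjusted p = 9.86e-08) against endothelium in cells of a single gate. VSMCs were also above leukocytes (3.37, SE 0.41, adjusted p = 2.64e-10). Enpep UMIs were seen in 11.4% of VSMCs, 7.56% of fibroblasts and 0.543% of leukocytes by a single gate.

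Mme encodes neprilysin, a membrane peptidase that cuts many small peptides, angiotensin I among them. Its transcripts marked fibroblasts, where libraries ran from 6.22 through 28.7 to 69.4 CPM. VSMCs ran from 0 through 0.815 to 10.8 CPM, and only 111 of their UMIs were of Mme. VSMCs were lower in every one of the 16 libraries, 19.3-fold in the fit (log2 difference -4.27, SE 0.27, adjusted p = 7.33e-20). In cells of a single gate the pooled levels were 27.2 CPM in fibroblasts, 1.28 in VSMCs, 1.05 in endothelium and 0.24 in leukocytes. The low Mme levels outside fibroblasts stood at 4.69%, 3.85% and 0.885% of the fibroblast level, in that order, while the whole fibroblast marker list stood at 7.12%, 3.26% and 1.67%. Whether fibroblast RNA in the droplets made up the Mme counts of the other gates was not tested.

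Agtr1a, the main type 1 receptor gene of the mouse vessel wall, was found in both VSMCs and fibroblasts. The VSMC libraries ran from 0 through 3.62 to 5.70 CPM and the fibroblast libraries from 1.84 through 3.94 to 11.5 CPM. The difference was not called (log2 -0.18, SE 0.17, adjusted p = 0.355), and VSMCs were the higher in 4 of 16 libraries. Leukocytes by a single gate held no Agtr1a UMI in 20792187, which allows up to 0.144 CPM, and both VSMCs (log2 difference 2.33, SE 0.34, adjusted p = 2.92e-08) and fibroblasts (2.51) were above the whole leukocyte gate. Agtr1a UMIs were seen in 3.63% of VSMCs and 3.25% of fibroblasts by a single gate and in 0 leukocytes. The endothelium by a single gate held 13 UMIs, a pooled level of 1.52 CPM. At this depth a cell without a UMI cannot be read as a cell without the receptor.

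Agtr1b, the second type 1 receptor gene, reached 205 UMIs in fibroblasts (pooled 0.576 CPM), 18 in VSMCs (0.204 CPM), 9 in the endothelial gate and 3 in leukocytes. Fibroblasts lay above VSMCs in 15 of 16 libraries. Agtr2, the type 2 receptor gene, was close to absent from these counts, with 30 UMIs in 20 fibroblasts, 1 UMI in VSMCs and none in endothelium or leukocytes. Both were under the count filter of the test between gates and have no p-value.

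Agtrap encodes a small membrane protein that binds the tail of the type 1 receptor and promotes its removal from the surface, and its transcript was the most evenly spread of the set. Fibroblasts ran from 12.6 through 23.5 to 41.3 CPM, the endothelium from 14.3 through 23.6 to 41.5 CPM, and leukocytes from 14.1 through 24.8 to 45.9 CPM. VSMCs ran from 7.11 through 10.6 to 17.0 CPM. VSMCs were lowest in 16 of 16 libraries against each other gate, by 2.01-fold against fibroblasts (log2 difference -1.01, SE 0.11, adjusted p = 7.73e-12), by -0.97 on the log2 scale against endothelium (SE 0.12, adjusted p = 9.91e-10, and -1.34 in cells of a single gate) and by -1.45 against leukocytes (SE 0.13, adjusted p = 7.32e-15). Fibroblasts did not differ from the endothelium beyond their spread (log2 0.04, and -0.29 with an adjusted p of 0.0738 in cells of a single gate), and both were a little below leukocytes (-0.44, SE 0.11, adjusted p = 0.000326, and -0.48, SE 0.12, adjusted p = 0.000429). The last of these was not called in cells of a single gate (-0.22, adjusted p = 0.225).

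**Figure D1:**
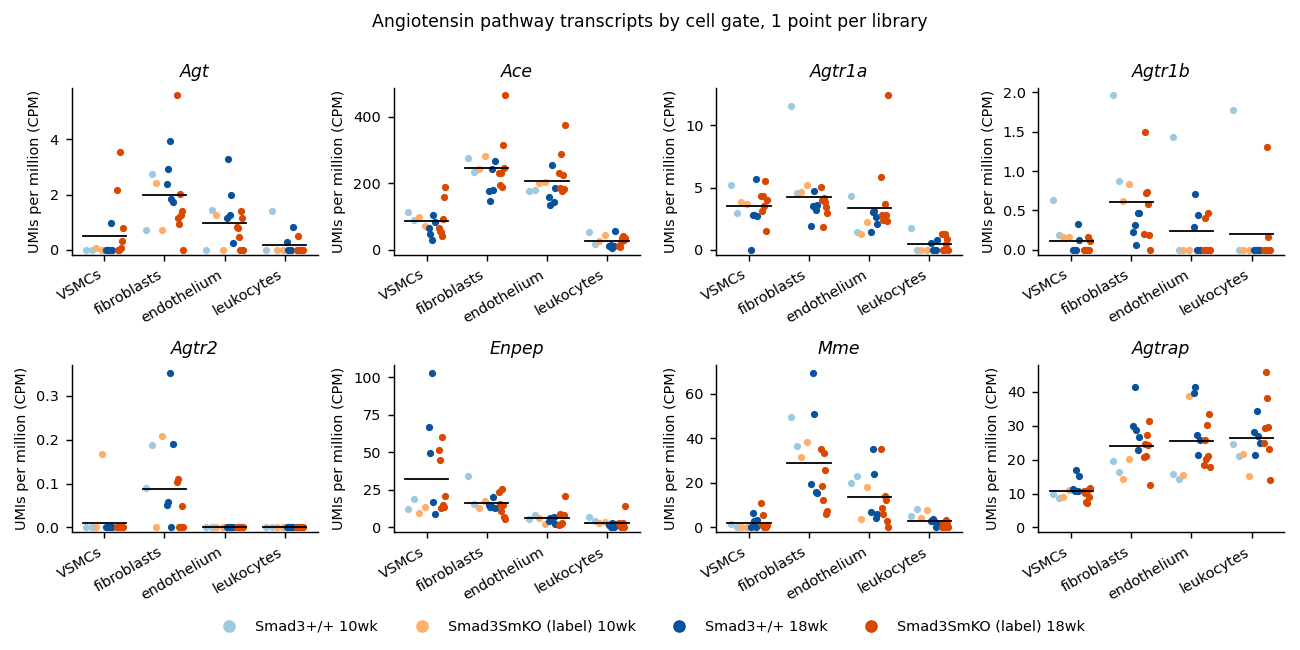
Level of each member in CPM (y axis, linear, scaled separately for each gene) in the VSMC, fibroblast, endothelium and leukocyte gates (x axis), with 1 point per library coloured by genotype and time and a black line at the mean over the 16 libraries. Ace, Mme and Agt stand highest in fibroblasts, Enpep spreads furthest in VSMCs (8.91 to 103 CPM), and Agtrap lies lower in VSMCs than in the other gates.

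Of the 6 members tested, 5 differed between VSMCs and endothelium (63.7% of all genes), 5 between VSMCs and leukocytes (79.6%), 4 between fibroblasts and endothelium (35.7%), 6 between fibroblasts and leukocytes (76.9%) and 6 between endothelium and leukocytes (74.4%). Fibroblasts were above the endothelium for Mme and Enpep also in cells of a single gate (log2 differences of 4.85, SE 0.43, and 2.03, SE 0.42). Against leukocytes, fibroblasts were higher for Agt, Ace, Enpep, Mme and Agtr1a, and of these Ace had an adjusted p of 1.88e-21 (log2 difference 3.01, SE 0.18). Mme was lower in VSMCs than in the whole endothelial gate (log2 difference -2.96, SE 0.32, adjusted p = 1.07e-11) and the whole leukocyte gate (-1.24, SE 0.44, adjusted p = 0.00976), yet in cells of a single gate these differences were 0.55 (adjusted p = 0.514) and 2.08 (adjusted p = 0.0117). Agtr1a, which was not called between VSMCs and the whole endothelial gate (0.30, SE 0.22, adjusted p = 0.222), was higher in VSMCs once overlapping cells were left out (1.29, adjusted p = 0.00782).

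Fibroblasts of the aortic wall are not uniform, and 6 transcripts of known adventitial or perivascular subsets were used to split them, each by the presence of at least 1 UMI. With 3 transcripts used to split VSMCs there were 72 comparisons of a member between cells with and without a transcript, and 10 of them had the same direction in every library. Those 10 were picked after their values were seen, and the splits have no test. The cells with a transcript were slightly deeper than those without it, for example 9862 against 8428 UMIs at the median for Dpp4.

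Dpp4, which marks a progenitor-like fibroblast population in many tissues, was seen in 969 fibroblasts. Those cells held Agtr1a at 12.7 CPM when pooled against 3.45 CPM in the rest, and libraries ran from 4.15 through 17.1 to 46.4 CPM against 1.81 through 3.51 to 10.5 CPM. Agtr1a was higher in Dpp4-positive cells in 14 of the 14 libraries with at least 10 of them. Agtrap, the partner of the receptor, was higher too (48.0 against 25.7 CPM, 14 of 14). Enpep (2.82 against 15.6 CPM) and Agt (0.683 against 2.01 CPM, from 8 UMIs in Dpp4-positive cells) were lower in 14 of 14, and Mme was lower in 13 of 14. Of the 30 Agtr2 UMIs of fibroblasts, 10 lay in these 969 cells, in 3 libraries. Dpp4-positive fibroblasts thus held more Agtr1a and Agtrap, the receptor and its partner, and less Enpep and Agt than the rest.

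Inmt, which encodes a methyltransferase, was seen in 5478 cells. Mme stood at 71.9 CPM in them against 18.2 CPM, with libraries from 19.5 through 55.6 to 173 CPM against 4.51 through 22.0 to 43.7 CPM, higher in 15 of 15 libraries. Agt was also higher in all 15 (4.09 against 1.58 CPM), and Agtr1a in 14 of 15 (5.90 against 3.36 CPM). The precursor transcript and that of neprilysin thus both stood higher in fibroblasts with Inmt.

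Tnfrsf11b, which encodes osteoprotegerin, was seen in 6842 fibroblasts. Ace was higher in them in 16 of 16 libraries, pooled 306 against 200 CPM, with libraries from 200 through 316 to 624 CPM against 138 through 218 to 251 CPM. Agtr1b was higher in 15 of 16 libraries (1.54 against 0.306 CPM), and 120 of its 205 fibroblast UMIs lay in these cells. Mme was lower in 15 of 16 (16.8 against 29.3 CPM). In fibroblasts with Has1, which makes hyaluronan (8833 cells), the direction for Ace was the opposite, 166 against 249 CPM and lower in 16 of 16 libraries. Enpep was also lower there in 14 of 16 (7.71 against 18.5 CPM).

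Hsd11b1, a steroid-activating enzyme seen in 13703 fibroblasts, went with Enpep (25.9 against 7.51 CPM, higher in 15 of 16 libraries) and with Ace (247 against 206 CPM, higher in 15 of 16). Fibroblasts with Wif1, which encodes a secreted Wnt inhibitor (6539 cells), held Agtr1a at 2.12 against 4.20 CPM, lower in 14 of 16 libraries, and none of the 30 Agtr2 UMIs. The members were therefore highest with different subset transcripts, Mme and Agt with Inmt, Ace and Agtr1b with Tnfrsf11b, Enpep with Hsd11b1, and Agtr1a and Agtrap with Dpp4.

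**Figure D2:**
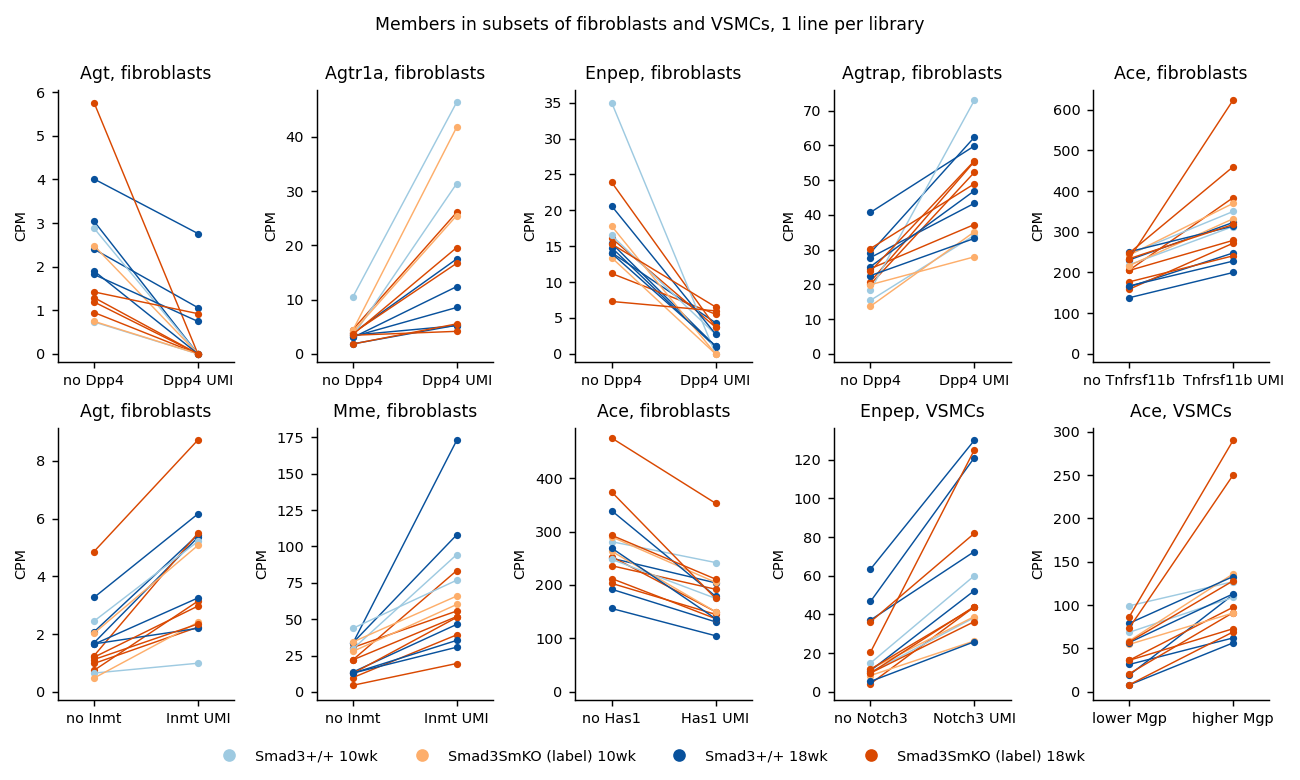
Levels in CPM (y axis, linear) of the 10 members and subsets with 1 direction in every library, in cells without and with the subset transcript (x axis), each line joining the 2 values of a library. Library medians without and with the transcript are 3.51 and 17.1 CPM for Agtr1a with Dpp4, 22.0 and 55.6 CPM for Mme with Inmt, and 218 and 316 CPM for Ace with Tnfrsf11b, whereas Ace lies lower with Has1.

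Within VSMCs the members were compared between cells that the study places towards the aortic root, which carry Notch3, and those further along the ascending aorta, which carry Ptprz1. VSMCs with a Notch3 UMI and no Ptprz1 UMI (574 cells) were tested against VSMCs with a Ptprz1 UMI and no Notch3 UMI (4545 cells) in the 13 libraries with at least 10 of each, while pooled levels and median depths are over all 16 libraries (626 and 4565 cells). Enpep ran from 40.8 through 62.9 to 139 CPM in the Notch3 cells and from 3.09 through 6.59 to 12.1 CPM in the Ptprz1 cells. The lowest Notch3 library was thus above the highest Ptprz1 library. The fitted difference was 9.26-fold (log2 3.21, SE 0.15, adjusted p = 1.24e-14, edgeR with libraries as blocks), in the same direction in 13 of 13 libraries, at median depths of 9524 and 8429 UMIs. The study itself picked Enpep as a transcript of the Notch3 cells in these mice, so its difference is not independent evidence. Without cells of the pericyte gate described below the pooled Enpep level in Notch3 cells was 79.5 CPM, against 80.1 CPM with them and 7.35 CPM in Ptprz1 cells.

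Ace differed the opposite way. Notch3 cells ran from 6.60 through 51.2 to 151 CPM and Ptprz1 cells from 73.7 through 102 to 171 CPM, so the groups overlapped. Ace was 1.72-fold lower in Notch3 cells (log2 difference -0.78, SE 0.18, adjusted p = 0.00231), in 11 of 13 libraries, and by -0.50 (adjusted p = 0.0319) in libraries with at least 50 cells of each. The exceptions were Smad3+/+ replicate 5 and Smad3SmKO replicate 6 of 18 weeks. Agtrap was not called (log2 0.30, SE 0.22, adjusted p = 0.41, 13.0 against 10.7 CPM pooled). Of the 3 members tested 2 were called, where 19.6% of 8504 genes were called.

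Agtr1a was too sparse for the test, with 15 UMIs in Notch3 cells (2.22 CPM) and a level of 4.83 CPM in Ptprz1 cells. Agt UMIs of VSMCs were almost all in a few Notch3 cells, 15 against 3 UMIs, but only 1 remained once cells of the pericyte gate were left out. Mgp, which encodes a calcification inhibitor, marks a further set of VSMCs in the study. By in situ hybridization the study found Mgp richest at the root and the proximal ascending aorta, as it did Notch3 and Enpep. VSMCs above their library's median of Mgp held Ace at 140 CPM against 65.2 CPM in the rest, higher in 16 of 16 libraries (56.5 through 110 to 290 CPM against 8.08 through 55.9 to 99.2 CPM). Enpep was lower in the same cells in 12 of 16 libraries (16.6 against 19.0 CPM). The splits by Mgp and by Notch3 thus went opposite ways for Ace, although the study places both transcripts towards the root. They therefore do not tell the level of Ace at the root.

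**Figure D3:**
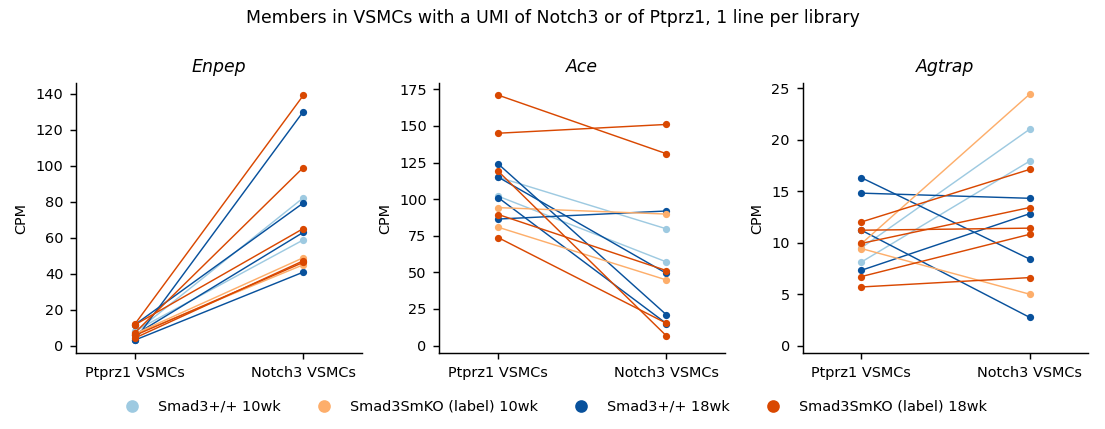
Levels of Enpep, Ace and Agtrap in CPM (y axis, linear) in VSMCs with Ptprz1 or Notch3 UMIs but not both (x axis), each line joining the 2 values of 1 of 13 libraries. Enpep is higher in the Notch3 cells in all 13 libraries, Ace is lower in 11, and Agtrap goes both ways.

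Pericytes, the mural cells of small vessels, were gated by Higd1b with Kcnj8, Abcc9 and Vtn, and 104 cells passed, of which 23 were in the VSMC gate, 30 in the fibroblast gate and 34 in the endothelial gate, and 24 in no gate. They held Agtr1a at a pooled 32.4 CPM, with a median of 27.7 and a highest value of 63.3 CPM over the 4 libraries with at least 10 such cells, each time above the VSMC level of that library. Enpep stood at 80.9 CPM (77.7 through 88.2 to 102 CPM, above the VSMC gate in 4 of 4). Agt held 22 UMIs there, 17.8 CPM, from 8 cells. Ace, at 66.3 CPM, was below the VSMC level in each of the 4 libraries. With 4 libraries and 104 cells these levels are a description.

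The main question of the study was what loss of Smad3 in VSMCs does to the aortic wall. No member passed edgeR's test for genotype in any gate at either time, and 1, Mme in fibroblasts at 18 weeks, had an unadjusted p under 0.05. In VSMCs 5 members were tested and 0 were called, where 0% of the 11852 genes were called at 10 weeks (220 at an unadjusted p under 0.05, 1 by DESeq2), 0.0422% at 18 weeks (5 genes, 582 at an unadjusted p under 0.05, 8 by DESeq2) and 0.00844% for the change between times (1 gene, 305 at an unadjusted p under 0.05, 2 by DESeq2). In fibroblasts 7 members were tested and 0 were called, where 0% of 14626 genes were called at 10 weeks (119 at an unadjusted p under 0.05), 0% at 18 weeks (363) and 0% for the change between times (130), and DESeq2 called 3, 3 and 1 genes. In the endothelium 0 of 5 and in leukocytes 0 of 2 members were called, with 0% of all genes at either time (427 and 362 of 11683 genes at an unadjusted p under 0.05 in endothelium, 272 and 140 of 9770 in leukocytes), where DESeq2 called 7, 0, 4 and 2 genes. DESeq2 called no member in any of these comparisons. In simulated counts of this design 12.2% of genes with a log2 change of 1 and 80.0% with 2 were recovered in VSMCs at 18 weeks. In fibroblasts these shares were 44.8% and 97.0%. At 10 weeks they were 6.19% and 61.2% in VSMCs and 1.04% and 53.1% in fibroblasts. Changes of 2-fold thus mostly went uncalled in the simulated counts. Every simulated gene had the same spread between libraries and no batch effect. Recovery of sparse or more variable members was therefore not measured. Of the 7 Smad3SmKO libraries of 18 weeks 2 came from a batch without controls, so with batch fitted the difference at 18 weeks rests on 5 libraries against 5.

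Ace in VSMCs at 18 weeks ran over 67.0, 46.6, 31.1, 105 and 84.4 CPM in the Smad3+/+ libraries. In the libraries labelled Smad3SmKO it ran over 64.9, 56.7, 53.2, 42.7, 93.8, 160 and 190 CPM. The 2 highest libraries were thus labelled Smad3SmKO while the other 5 lay within the Smad3+/+ range. The fitted log2 difference was 0.38 (SE 0.24, adjusted p = 1), and at 10 weeks it was -0.20 (SE 0.31), from 113 and 88.9 CPM in Smad3+/+ against 98.8 and 72.9 CPM. Of the 4 batches of 18 weeks with both genotypes, 2 had more Ace in Smad3SmKO-labelled libraries and 2 had less. In fibroblasts Ace stood at 177, 148, 243, 179 and 267 CPM in Smad3+/+ and between 190 and 465 CPM (mean 267 ± 96.6, SD, n = 7) in those labelled Smad3SmKO (log2 0.20, SE 0.15, adjusted p = 1).

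Mme in fibroblasts had the lowest unadjusted p of any member. The Smad3+/+ libraries of 18 weeks stood at 19.6, 69.4, 50.8, 15.8 and 15.6 CPM. Those labelled Smad3SmKO ran from 6.22 through 18.5 to 35.2 CPM. The groups overlapped, the log2 difference was -0.79 (SE 0.27, unadjusted p = 0.0141, adjusted p = 1), and in 4 of the 4 batches with both genotypes the Smad3SmKO-labelled libraries had the lower level (19.6 against 15.4, 50.8 against 35.2, 69.4 against 33.4 and 15.7 against 6.22 CPM). At 10 weeks the values were 49.6 and 36.5 CPM against 31.7 and 38.4 CPM, a log2 difference of -0.29 (SE 0.41). The result failed the correction over all genes.

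Agtrap in VSMCs showed a like pattern. At 18 weeks Smad3+/+ libraries stood at 11.3, 10.6, 17.0, 10.6 and 15.2 CPM and those labelled Smad3SmKO ran from 7.11 through 10.3 to 11.6 CPM, from 2 to 210 UMIs per library. The log2 difference was -0.46 (SE 0.23, unadjusted p = 0.0656, adjusted p = 1), and Smad3SmKO-labelled libraries had the lower level in 4 of 4 batches, and in 3 of 4 for cells of a single gate. At 10 weeks the means were 9.30 CPM in Smad3+/+ and 9.93 CPM. In fibroblasts the log2 difference at 18 weeks was -0.20 (SE 0.20).

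Enpep in VSMCs varied widely between libraries of both genotypes. Smad3+/+ libraries of 18 weeks stood at 67.0, 49.4, 103, 16.9 and 8.91 CPM, and those labelled Smad3SmKO at 51.9, 45.0, 13.0, 60.5, 14.8, 13.4 and 20.7 CPM. The log2 difference was -0.50 (SE 0.34) at 18 weeks and -0.38 (SE 0.45) at 10 weeks. In fibroblasts it was 0.01 (SE 0.36) and -0.69 (SE 0.53).

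The receptor transcripts were low and were not called for genotype. Agtr1a in VSMCs stood at 0, 2.79, 2.83, 5.70 and 2.75 CPM in Smad3+/+ at 18 weeks and ran from 1.55 through 4.00 to 5.50 CPM in the libraries labelled Smad3SmKO (log2 -0.10, SE 0.60). In fibroblasts its log2 difference was 0.29 (SE 0.27), and Smad3SmKO-labelled libraries had the higher level in 4 of 4 batches, and in 3 of 4 for cells of a single gate. At 10 weeks it was -0.67 (SE 0.41), with a Smad3+/+ library at 11.5 CPM. Agtr1b in fibroblasts stood at 0.875 and 1.96 CPM in Smad3+/+ and 0.624 and 0.832 CPM in the libraries labelled Smad3SmKO at 10 weeks, the only tested member whose VSMC or fibroblast libraries did not overlap by genotype at either time, where with 2 against 2 libraries 22.7% of all genes in fibroblasts did not overlap. At 18 weeks its fitted difference had the other sign (0.90, SE 0.69), and neither was called. Agt in fibroblasts had log2 differences of -0.43 (SE 0.49) and -0.20 (SE 0.83) at 18 and 10 weeks.

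In VSMCs, where Agtr1b was too sparse for the test, its libraries did not overlap at 10 weeks either, with 7 and 1 UMIs in Smad3+/+ (0.63 and 0.195 CPM) against 2 and 1 UMIs (0.165 and 0.167 CPM). In VSMCs and fibroblasts no other tested member separated the genotypes without overlap. Of all genes, 28.2% did so in VSMCs at 10 weeks, 0.186% in VSMCs at 18 weeks and 0.0615% in fibroblasts at 18 weeks. In the whole endothelial gate Ace (higher) and Mme (lower) also did so at 10 weeks, but not in cells of a single gate. In leukocytes at 10 weeks Enpep (lower) did so, from 7 UMIs in Smad3+/+ against 3, and from 5 against 0 in cells of a single gate. Agtrap (lower) did so in leukocytes of a single gate only. The share of all genes was not counted for the endothelial and leukocyte gates, so these separations with 2 against 2 libraries cannot be set against it. The genotype effect at 18 weeks was also compared between VSMCs and fibroblasts in 1 fit, and 0 of 7 members were called, where 0% of 14475 genes were called (632 at an unadjusted p under 0.05, 3 by DESeq2). The estimates, as VSMCs minus fibroblasts, included -0.48 (SE 0.50) for Enpep, -0.48 (SE 0.28) for Agtrap and 0.12 (SE 0.27) for Ace. With the libraries digested for 30 min alone Enpep was called (log2 -1.20, SE 0.27, adjusted p = 0.0128), but with those of 60 min the estimate was 1.29 (SE 0.71, adjusted p = 0.958). Over the alternatives it ran from -1.21 to 1.29.

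**Figure D4:**
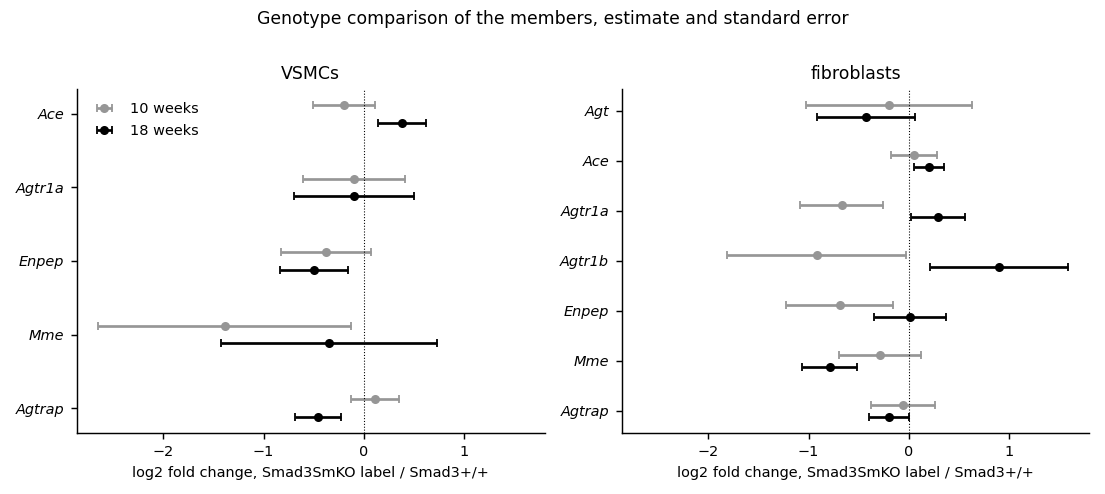
Fitted log2 difference of each tested member between libraries labelled Smad3SmKO and Smad3+/+ (x axis) with its SE, in VSMCs and fibroblasts, at 10 weeks (grey) and 18 weeks (black). The widest bars belong to the sparse members, such as Mme in VSMCs, and the estimate furthest from 0 in SE units is Mme in fibroblasts at 18 weeks (-0.79, SE 0.27).

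Among the VSMC libraries of 18 weeks, Ace levels followed the digestion time. Ace in VSMCs ran from 31.1 through 53.2 to 67.0 CPM in the 7 libraries digested for 30 min and from 84.4 through 105 to 190 CPM in the 5 digested for 60 min. The ranges did not overlap, and Ace was the only tested member for which this held, where 2.46% of all genes in VSMCs did not overlap. The 4 libraries of 10 weeks, all digested for 60 min, ran from 72.9 to 113 CPM. Enpep in VSMCs lay the other way with overlap, 13.0 through 51.9 to 103 CPM after 30 min and 8.91 through 14.8 to 20.7 CPM after 60 min. In fibroblasts 0 tested members were without overlap between digestion times (6.19% of all genes), and Ace ran from 148 through 195 to 243 CPM against 179 through 267 to 465 CPM.

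The make-up of the VSMC gate differed between the same libraries. Cells with Notch3 and not Ptprz1, in which Ace was low and Enpep high, made up 16.1 through 22.7 to 58.3% of VSMCs after 30 min and 5.43 through 7.20 to 13.5% after 60 min at 18 weeks. Cells with Ptprz1 and not Notch3 made up 13.6 through 18.8 to 27.8% and 39.8 through 52.9 to 58.3%. At 10 weeks these shares were 2.39 to 6.10% and 47.2 to 63.9%. Median UMIs per VSMC were 10985 and 14328 at the median library after 30 and 60 min at 18 weeks and 6364 at 10 weeks, and the list of genes induced by tissue digestion had median levels of 5110 CPM in VSMCs of 30 min and 3197 CPM in those of 60 min at 18 weeks, with overlap (1512 to 7870 and 2462 to 4976 CPM), and 1893 CPM at 10 weeks. The part of the cell mix, the depth and the digestion in the differences of Ace and Enpep was not tested. Batch, digestion and the tracer label cannot be told apart.

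**Figure D5:**
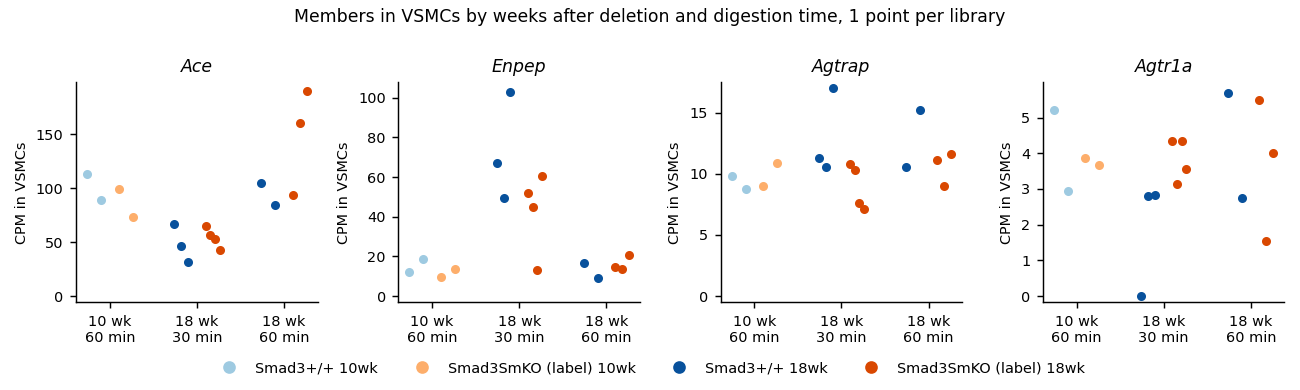
Levels of Ace, Enpep, Agtrap and Agtr1a in VSMCs in CPM (y axis, linear, scaled separately for each gene) by time and digestion (x axis), with 1 point per library coloured by genotype. Ace separates the libraries of 18 weeks by digestion (31.1 to 67.0 CPM after 30 min, 84.4 to 190 CPM after 60 min), and Enpep is highest after 30 min.

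The wider pathway was described by 2 lists, 22 further genes of renin, angiotensin peptidases and alternative receptors, and 23 genes of angiotensin receptor signalling. Neither list had a gene called by edgeR for genotype in any gate at either time, and at most 3 genes of a list had an unadjusted p under 0.05 in any of these comparisons. Between VSMCs and fibroblasts 16 genes of the first list were tested, 2 higher and 8 lower in VSMCs (68.9% of all genes called, median log2 -0.22, all genes -0.09). Anpep, which encodes aminopeptidase N, was far lower in VSMCs (log2 -4.64, SE 0.20, adjusted p = 1.41e-26), as were Prcp, a carboxypeptidase that cuts angiotensin II (-1.49), the endothelin-converting enzyme gene Ece1 (-1.60), the neurolysin gene Nln (-1.16) and the prorenin receptor gene Atp6ap2 (-0.80). Lnpep, which encodes the aminopeptidase that binds angiotensin IV, was higher (0.93, SE 0.07, adjusted p = 3.21e-17). Mas1, a receptor gene, held 4 UMIs in VSMCs and 5 in fibroblasts, and Ctsg none.

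Of the signalling list 22 genes were tested and all were called between VSMCs and fibroblasts, 14 higher and 8 lower in VSMCs (68.9% of all genes, median log2 0.59). The rho kinase genes Rock1 (log2 2.37, SE 0.09, adjusted p = 2.11e-28) and Rock2 (1.01), the phospholipase gene Plcb4 (2.97, SE 0.17, adjusted p = 4.26e-21) and the calcium channel gene Itpr1 (1.08) were higher in VSMCs. The arrestin gene Arrb1 (-1.98) and Arap1 (-2.13), whose product takes part in trafficking of the type 1 receptor, were lower.

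The counts against the other gates, with whole gates throughout, stand beside the share of all genes called. VSMCs were higher in 3 and lower in 7 of 16 genes of the first list against endothelium, where 63.7% of all genes were called (Ece1 -2.50, Prcp -1.91, Anpep -3.97, Lnpep 0.99), and higher in 1 and lower in 12 against leukocytes, where 79.6% were (Prcp -3.17, Ctsa -1.61). For the signalling list the counts of 22 genes were 11 and 7 against endothelium (Rock1 1.84, Arrb1 -2.29) and 12 and 10 against leukocytes (Arrb2 -5.35, Gna11 2.37). Fibroblasts were higher in 5 and lower in 2 genes of the first list against endothelium, where 35.7% of all genes were called and Ece1 stood at -0.90, and higher in 1 and lower in 11 of the signalling list (Mtus1 -1.17, Plcb4 -1.14, Arap1 0.58). Against leukocytes, where 76.9% were called, fibroblasts were higher in 3 and lower in 12, with the mast cell gene Cpa3 at -5.67, and in 9 and 11 of the signalling list (Grk2 -2.59, Rgs2 -3.74). The endothelium was higher in 3 and lower in 13 against leukocytes, where 74.4% were called (Ece1 2.81, Ctsa -1.82), and in 11 and 9 of the signalling list (Arhgef12 1.57). Between Notch3 and Ptprz1 VSMCs, where 19.6% of all genes were called, the first list had 2 of 10 genes lower in Notch3 cells, Ctsd (-0.55) and Ctsa (-0.24), and the signalling list 3 of 20 lower, Plcb4 (-0.69), Nox4 (-0.77) and Rock2 (-0.28), and 2 higher, Plcb3 (0.41) and Rgs2 (0.68).

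The genes whose levels followed each member most closely were sought over the 64 sums of 4 gates in 16 libraries, among 13065 genes, as Pearson's r of log2(CPM + 1). The points share libraries and depth, and the values are a description. For Ace the closest were Col1a2 (0.929), Sparc (0.926) and Chpf (0.924). For Mme they were Col4a4 (0.886), Ptgfr (0.873) and Glt8d2 (0.869), and for Enpep they were Klhl7 (0.822), AI838599 (0.797) and Zc2hc1a (0.795). Agtr1a was followed by Abcd3 (0.852), Foxp2 (0.836) and Ptprd (0.828), Agtrap by Irak3 (0.867), Jak1 (0.841) and Smarcd2 (0.83), and Agt by 2600014E21Rik (0.74), Anks1b (0.736) and 9330159F19Rik (0.731). Col1a2, Sparc and Col4a4 encode proteins of the extracellular matrix. Agtr1b and Agtr2 had under 500 UMIs and were left out.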

How the data were processed

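The deposited files hold raw UMI counts for each gene in each cell, produced by the authors on mm10, per the labels with Cell Ranger 6. The headers of the counts name an earlier version of Cell Ranger. The study's limits on cells were applied (above 600 and below 6000 genes, above 2000 and below 50000 UMIs, and mitochondrial UMIs below 25%), and no doublet caller was run. UMIs were summed per library and gate where a gate held at least 10 cells. Cells meeting the rules of 2 gates counted in both, and an alternative used cells of a single gate.

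Sums were tested with edgeR 4.0.16 in R 4.3.3 (quasi-likelihood test, TMM factors, filterByExpr, Benjamini-Hochberg adjustment over all genes, threshold 0.05). Genotype fits used all 16 libraries with batch as a covariate and a genotype effect per time, and fits between gates or VSMC subsets used library as a block. DESeq2 1.42.0 (Wald test) was an alternative. Other alternatives were size factors, count and cell filters, gate thresholds, all barcodes, digestion strata, a fit by time in place of batch and leaving out each library. Shares of cells and likeness were computed in Python 3.11.15 (numpy 2.4.6, pandas 2.3.3, scipy 1.17.1). The fits were tested on simulated data with 200 changed genes.

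Named were all 8 members, from each wider list up to 6 called genes per comparison by adjusted p, and the 3 genes most like each member with at least 500 UMIs. Genes outside that rule were chosen after their values were seen. The members and lists were chosen with earlier results of these data known. Replicates are separate mice, numbered in accession order. Protein sequences were not used here.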

Additional observations from a re-analysis of the deposited data

Results flagged for a closer look

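In 10 of 57 groups of 4 to 10 libraries the highest library stood further from the others than Dixon's 95% limit allows. Most of these values rest on few UMIs. The limit is for normally distributed values, whereas several groups are sparse counts, and the groups share libraries. The count of 10 therefore cannot be set against a chance rate. In VSMCs, Agt stood at 0.976 CPM (6 UMIs in 403 cells) in Smad3+/+ replicate 4 of 18 weeks, with the others at 0. VSMCs of a single gate in that library held 0 Agt UMIs. In fibroblasts, Agt stood at 5.60 CPM (54 UMIs, 913 cells) in Smad3SmKO replicate 1 of 18 weeks against 0 to 2.03 CPM, and Enpep at 20.2 CPM (739 UMIs, 2213 cells) in Smad3+/+ replicate 4 against 13.1 to 15.1 CPM. In leukocytes, Ace stood at 56.1 CPM (138 UMIs, 284 cells) in Smad3+/+ replicate 5 of 18 weeks against 6.48 to 14.0 CPM. Leukocytes of a single gate in that library held Ace at only 2.73 CPM (5 UMIs, 244 cells), within the 1.0 to 3.06 CPM of its group. Also in leukocytes, Agt stood at 0.513 CPM in Smad3SmKO replicate 2 and Agtr1b at 1.31 CPM in replicate 4 of 18 weeks, each from 1 UMI, and Enpep at 14.1 CPM in replicate 7, from 2 UMIs in 13 cells. In the endothelial gate, Smad3SmKO replicate 7 of 18 weeks, with 31 cells, held Agtr1a at 12.4 CPM (9 UMIs, others 2.33 to 5.86 CPM) and Enpep at 20.7 CPM (15 UMIs, others 1.67 to 8.78 CPM), and replicate 1 held Mme at 35.1 CPM (42 UMIs, 138 cells, others 0 to 13.9 CPM). Endothelium of a single gate held Mme at 0 CPM in replicate 1, while in replicate 7 it held 8 Agtr1a UMIs in 3 cells.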

How the results depend on the processing

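The number of members called was 0 for genotype in every gate, time and alternative run, with 1 exception. With the libraries of 18 weeks digested for 30 min alone, 1 member (Enpep) was called for a difference in genotype effect between VSMCs and fibroblasts. Counts between gates moved under few settings. In cells of exactly 1 gate 3 members were called between VSMCs and endothelium (5 as reported) and 3 between endothelium and leukocytes (6 as reported). Agt, called in both as reported, was not tested in those cells, so part of each drop is a missing test. Between fibroblasts and endothelium 2 were called by DESeq2, 2 with doubled gate thresholds and 2 without the 4 libraries whose GFP and tracer label differ, a choice made after seeing the data (4 as reported). The sign turned for 3 of 96 differences between values that were called or lay beyond 1 SE of 0, Mme between VSMCs and endothelium (0.55 in cells of exactly 1 gate), Mme between VSMCs and leukocytes (2.08 likewise) and Agtrap by genotype in the endothelium at 18 weeks (0.60 with libraries of 60 min alone). In the genotype fits and that of Notch3 against Ptprz1 VSMCs, leaving out any 1 library changed no count of members called by more than 1.5 times and no call of a member. A further 31 differences, none of them called as reported, crossed 0 under some alternative, such as Enpep in VSMCs at 18 weeks (-0.80 to 0.20). Of all differences, 8 lost and 3 gained a call under some alternative. Counts over all genes moved more. For genotype in VSMCs at 18 weeks 5 genes were called, 134 without the count filter, 8 by DESeq2, 1 with at least 50 cells per library, 1 with time in place of batch and 2 to 6 leaving out 1 library. Without the count filter 51 were called in VSMCs at 10 weeks. Between Notch3 and Ptprz1 VSMCs 727 genes were called with at least 50 cells per library, against 1667. The cause was not tested. VSMCs numbered 22 in the smallest library, and sparse members such as Agtr2 could not be tested at this depth.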

Other observations

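Renin itself was looked at after its values were seen. Ren1 held 1056 UMIs in fibroblasts, but in only 146 of 36066 cells, and 882 of those UMIs lay in 37 cells with at least 5 each. The 10 cells with most held 613, and 1 cell of Smad3SmKO replicate 6 of 18 weeks held 308. VSMCs held 1 Ren1 UMI, leukocytes 1 and the endothelial gate 49. Fibroblasts with a Dpp4 UMI held 42.2 CPM against 1.63 CPM in the rest (higher in 9 of 14 libraries), and those with a Has1 UMI 7.30 against 1.03 CPM (higher in 13 of 16). Since few cells carry most of the UMIs, these levels rest on single cells.

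The 1642 cells outside all 4 gates held members too, with pooled levels of 152 CPM for Ace, 21.0 for Enpep, 8.96 for Mme, 17.9 for Agtrap, 6.81 for Agtr1a, 1.02 for Agt and 0.567 for Agtr1b, and no Agtr2 UMI.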
